A study of Homo sapiens with 17 samples.

Results

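Genes of the Polycomb system and of the enzymes that undo its histone mark were followed through RNA sequencing of 2 lymphoma lines, 9 in all: EZH1, EZH2, SUZ12, EED, JARID2, CBX2, CBX8, KDM6A and KDM6B. The rule is the list of symbols itself and uses no measured value, although the list was chosen with earlier results of these data known. All 9 were found by Ensembl identifier among the 63677 genes of the count files. Karpas-422 and WSU-DLCL2 are established human lines of diffuse large B cell lymphoma, and both are known to carry a mutation in the catalytic domain of EZH2. The 5 groups of 3 libraries each were Karpas-422 treated with A-485 for 48 h, untreated Karpas-422, WSU-DLCL2 treated with A-485 for 48 h, 3 WSU-DLCL2 clones labelled BCL11A knockout, and untreated WSU-DLCL2. The untreated libraries are named DMSO in the count tables, so they may have received the solvent. The clones have no unedited clone beside them, so a difference from the bulk line cannot be told apart from picking single clones. Since no label ties replicates to separate cultures, the p-values cover only how these libraries vary, and that variation may be technical.

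Polycomb repressive complex 2 (PRC2) methylates lysine 27 of histone H3, and the trimethylated form, H3K27me3, marks silenced genes. EZH2 or its paralog EZH1 is the methyltransferase, SUZ12 holds the complex together, EED binds H3K27me3 and stimulates the enzyme, and JARID2 is an accessory subunit that helps bring the complex to chromatin. CBX2 and CBX8 are chromodomain subunits of Polycomb repressive complex 1 (PRC1) that read H3K27me3, while KDM6A (UTX) and KDM6B (JMJD3) remove it. The same lysine is acetylated by p300 and CBP, the enzymes whose catalytic site A-485 blocks. In germinal centre B cells, EZH2 is known to hold plasma cell and cell cycle inhibitor genes silent, and its mutation is frequent in lymphomas of that origin.

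The genes that encode the 2 methyltransferases and EED were the core subunits with the largest changes under A-485 in Karpas-422, so their promoter windows are shown for reference. RefSeq windows on GRCh38.p14, from 250 bases before to 50 bases after the annotated start, were at hand for 7 of the 9 genes, and CBX2 and CBX8 are named only. Capitals mark matches on either strand to an E2F-like motif (TTTNNCGC, in reverse GCGNNAAA) and to the NF-Y motif (CCAAT, in reverse ATTGG). E2F factors drive many proliferation genes, EZH2 among them, and NF-Y binds CCAAT boxes near start sites. The EZH2 window shown, the first of 2 for this gene, lies at chr7:148884242-148884541 on the minus strand. The window of EZH1 lies at chr17:42744991-42745290 on the minus strand and that of EED at chr11:86244503-86244802 on the plus strand.
EZH2: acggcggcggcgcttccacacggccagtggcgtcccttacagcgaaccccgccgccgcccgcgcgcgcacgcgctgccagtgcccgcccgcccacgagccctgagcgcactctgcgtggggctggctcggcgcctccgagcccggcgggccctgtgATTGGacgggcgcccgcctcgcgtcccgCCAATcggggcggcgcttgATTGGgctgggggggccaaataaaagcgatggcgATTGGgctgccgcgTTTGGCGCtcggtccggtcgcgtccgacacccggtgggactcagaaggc
EZH1: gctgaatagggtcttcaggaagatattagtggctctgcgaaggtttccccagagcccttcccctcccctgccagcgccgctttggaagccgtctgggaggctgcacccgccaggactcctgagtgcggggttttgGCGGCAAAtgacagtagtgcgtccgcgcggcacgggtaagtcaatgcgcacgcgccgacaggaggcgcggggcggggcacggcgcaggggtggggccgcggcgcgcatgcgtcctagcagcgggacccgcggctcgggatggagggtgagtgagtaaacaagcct
EED: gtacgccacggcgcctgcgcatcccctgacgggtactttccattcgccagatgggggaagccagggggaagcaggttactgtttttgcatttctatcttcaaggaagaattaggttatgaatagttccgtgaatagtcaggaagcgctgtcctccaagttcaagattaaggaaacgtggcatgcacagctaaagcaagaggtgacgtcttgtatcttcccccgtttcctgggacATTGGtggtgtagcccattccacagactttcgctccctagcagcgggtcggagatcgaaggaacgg
The EZH2 window shown held 1 match to the E2F-like motif and 4 to the NF-Y motif, and its second window held 0 of each. The EZH1 window held 1 E2F-like match and 0 NF-Y matches, and the EED window held 0 and 1. Of the genes not shown, SUZ12 held 1 and 1, KDM6A 0 and 2, and KDM6B 0 and 0 in both of its windows. JARID2 held 0 and 1 in 1 window and 0 and 0 in the other. Among 35116 RefSeq promoter windows of this length, 6.89% held the E2F-like letters and 34.6% the NF-Y letters. A match of letters is a description and not a bound site.

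The libraries were of 2 kinds. The 9 libraries of both Karpas-422 groups and of WSU-DLCL2 with A-485 held 6689320 to 8897051 counts in genes (called shallow here), and 43.0% to 55.5% of their reads had no unique alignment. The 6 libraries of the clones and of untreated WSU-DLCL2 held 21233752 to 37286727 counts (called deep), with 7.73% to 9.24% not unique. Karpas-422 and the clones could therefore each be compared with an untreated group of the same kind, whereas WSU-DLCL2 with A-485 could not. Untreated WSU-DLCL2 replicate 3 stood apart: its title says untreated, its treatment entry says A-485, and its 3 sequencing runs share 1 count file. It differed more than 2-fold from replicates 1 and 2 in 16.4% and 16.9% of genes with ample counts, against 0% between replicates 1 and 2. Among B cell markers, CD79A (377 to 729 CPM, the usual scaling of counts by library size, in shallow and 382 to 693 CPM in deep libraries) and PAX5 were high in all 15 libraries. MS4A1 and CD22 were low in the shallow libraries (4.32 to 42.9 CPM and 0.466 to 43.5 CPM) and high in the deep ones (at least 2254 and 1090 CPM). CD79B was likewise lower in the shallow libraries, at 6.73 to 54.2 CPM, than in the deep ones, at 225 to 479 CPM. Of the markers of other cells, T cell CD3D was at 36.8 to 64.4 CPM in Karpas-422, CD2 and MPO were at 0 counts in every library, EPCAM and COL1A1 had at most 2 counts, and CD3E, LYZ and CD14 had at most 11.

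For most of the 9 genes the level differed between the kinds of library. Every Karpas-422 library and, by title, every A-485 library was shallow, so kind, line and drug cannot be told apart in these differences. KDM6A had 10 to 63 counts in the 9 shallow libraries (1.44 to 7.33 CPM) and 763 to 1585 counts in the 6 deep ones (32.2 to 43.8 CPM). EZH1 ranged from 3.88 to 18.7 CPM in shallow and from 45.4 to 57.5 CPM in deep libraries, and EZH2 from 6.27 to 52.2 CPM and from 75.1 to 181 CPM. CBX2, CBX8 and JARID2 ran the other way. CBX8, for example, lay between 40.1 and 106 CPM in the shallow and between 14.2 and 19.2 CPM in the deep libraries. The ranges of the 2 kinds were separate for EZH2, EZH1, SUZ12, JARID2, CBX2, CBX8 and KDM6A, and they overlapped for EED and KDM6B.

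**Figure D1:**
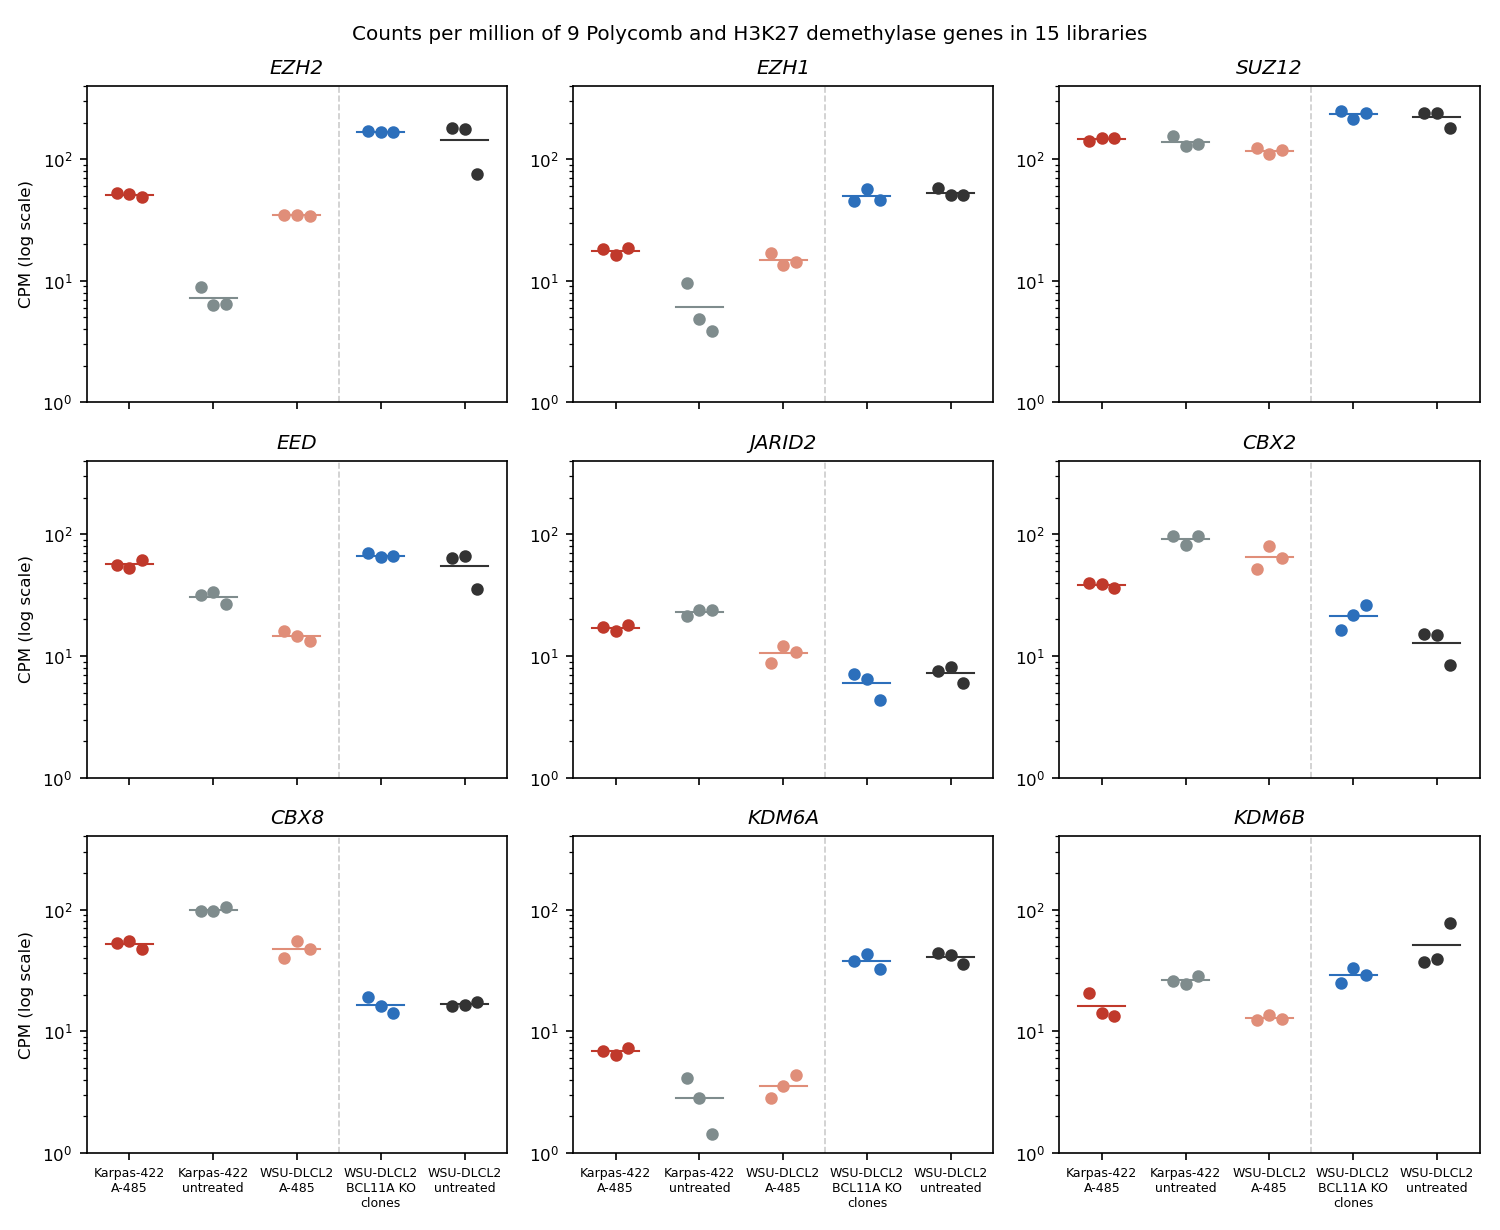
CPM of the 9 genes in each library (points, log axis), with the group mean as a line, for Karpas-422 with A-485 and untreated, and WSU-DLCL2 with A-485, BCL11A knockout clones and untreated. EZH2 sits at 49.0 to 52.2 CPM with A-485 and at 6.27 to 8.92 CPM untreated in Karpas-422, while CBX2 and CBX8 show the opposite order, and untreated WSU-DLCL2 replicate 3 lies apart for EZH2 and KDM6B.

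The first comparison asked how these genes differ after inhibition of the acetyltransferases in Karpas-422. All 9 passed the test at an adjusted p under 0.05, 4 of them higher with A-485 (EZH2, EZH1, EED and KDM6A) and 5 lower (SUZ12, JARID2, CBX2, CBX8 and KDM6B), and in none did the 3 treated libraries overlap the 3 untreated ones, as was true of 74.7% of all genes tested. Of the 11846 genes tested, 71.4% were called, 37.6% higher and 33.7% lower, so a call was the usual outcome here and the sizes say more than the count. The median log2 fold change was -0.33 over the 9 genes and 0.08 over all genes tested. Values in this and the next paragraphs are CPM scaled with TMM factors, unless they are called plain, and adjusted p-values come from quasi-likelihood fits in edgeR, with the Benjamini-Hochberg method applied over all genes tested. In bulk libraries, fewer cells of a kind and less RNA per cell cannot be told apart.

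The 2 methyltransferases were both higher. EZH2 had 45.3, 44.8 and 42.7 CPM in the A-485 libraries and 9.84, 7.44 and 7.62 CPM in the untreated ones. Every treated library was thus far above the highest untreated one. EZH2 averaged 44.3 ± 1.39 CPM with A-485 and 8.30 ± 1.34 CPM untreated (SD, n = 3 each), a log2 fold change of 2.40 ± 0.12 (SE; edgeR adjusted p = 6.59e-10). This was the largest change among the 9 genes and lay above 95.8% of all genes tested, on raw counts of 407, 456 and 421 with A-485 and 73, 49 and 45 untreated. EZH1, the paralog that is prominent in resting cells, had 15.8, 14.2 and 16.3 CPM with A-485 and 10.6, 5.77 and 4.57 CPM untreated. The groups were apart, although untreated replicate 1 stood well above the others, and the counts were low (142 to 161 with A-485, 27 to 79 untreated). The log2 fold change of EZH1 was 1.10 ± 0.23 (edgeR adjusted p = 0.000812).

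The other core subunits changed less. EED had 48.3, 46.4 and 53.8 CPM with A-485 and 35.0, 40.1 and 31.5 CPM untreated, which is 1.39-fold higher (log2 fold change 0.48 ± 0.10, edgeR adjusted p = 0.00078). SUZ12 had 122, 132 and 129 CPM with A-485 and 170, 154 and 157 CPM untreated. Its fall of 0.33 ± 0.06 on the log2 scale (edgeR adjusted p = 0.00021) rested on the scaling. With library sizes alone the value turned to 0.08 (adjusted p = 0.295), and in plain CPM the groups overlapped, at 141 to 151 CPM with A-485 and 130 to 154 CPM untreated. The SUZ12 pseudogene SUZ12P1, which shares sequence with it, was higher at 26.5 ± 2.42 CPM with A-485 and 17.6 ± 3.26 CPM untreated (log2 fold change 0.59 ± 0.14). Whether reads of the pair are split unequally was not tested. The EZH2 pseudogene EZH2P1 had at most 1 count in any Karpas-422 library.

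The accessory subunit and the readers of the mark were lower. JARID2 had 14.9, 14.0 and 15.7 CPM with A-485 and 23.5, 28.2 and 28.3 CPM untreated, a log2 fold change of -0.84 ± 0.12 (edgeR adjusted p = 2.50e-05). CBX2 averaged 33.4 ± 1.82 CPM with A-485 (34.7, 34.2 and 31.3) and 106 ± 9.04 CPM untreated (108, 96.4 and 114), which is 3.18-fold lower. The log2 fold change of CBX2 was -1.67 ± 0.08 (edgeR adjusted p = 4.57e-10), the largest fall of the 9 and below that of all but 3.23% of genes. CBX8, the neighbour of CBX2 in the human genome and a subunit of the same family of complexes, had 45.6, 48.0 and 41.5 CPM with A-485 and 107, 115 and 125 CPM untreated. It was 2.56-fold lower (log2 fold change -1.36 ± 0.08, edgeR adjusted p = 2.66e-09), and for both readers the lowest untreated library was more than double the highest treated one.

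The 2 demethylases went in opposite directions. KDM6B, known as an inducible enzyme, had 18.0, 12.3 and 11.6 CPM with A-485 and 28.4, 29.2 and 33.5 CPM untreated. It was 2.18-fold lower (log2 fold change -1.12 ± 0.16, edgeR adjusted p = 2.11e-05), with treated replicate 1 the nearest to the untreated libraries. KDM6A, an X-linked gene whose product works inside the MLL3 and MLL4 complexes, had 5.90, 5.60 and 6.39 CPM with A-485 and 4.58, 3.34 and 1.69 CPM untreated. Its rise of 0.85 ± 0.26 on the log2 scale (edgeR adjusted p = 0.00883) rests on 53, 57 and 63 counts with A-485 and 34, 22 and 10 counts untreated, and untreated replicate 3 alone had fewer than 20.

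Transcript number and the makeup of the reads moved with these directions, and their part in the result was not tested. The 4 genes that were higher have 10 to 24 transcripts in GENCODE 29 (EZH2 has 10, EED 11, KDM6A 14 and EZH1 24), and the 5 that were lower have 3 to 6. Over all genes tested, the median log2 fold change was 0.05 among 1886 genes with 1 transcript, -0.21 among 1615 genes with 2 to 3, -0.18 among 2299 genes with 4 to 6, 0.11 among 2371 genes with 7 to 10, 0.39 among 2588 genes with 11 to 20 and 0.66 among 739 genes with more than 20. The changes of EZH2, CBX2 and CBX8 were larger than the median of their own class by over 1 log2 unit, while those of EED and EZH1 lay closer to it. The reads outside genes made up 8.69% ± 0.375 of all reads with A-485 and 3.92% ± 0.538 untreated, and the reads without a unique alignment 48.9% with A-485 and 55.2% untreated (means, n = 3 each).

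**Figure D2:**
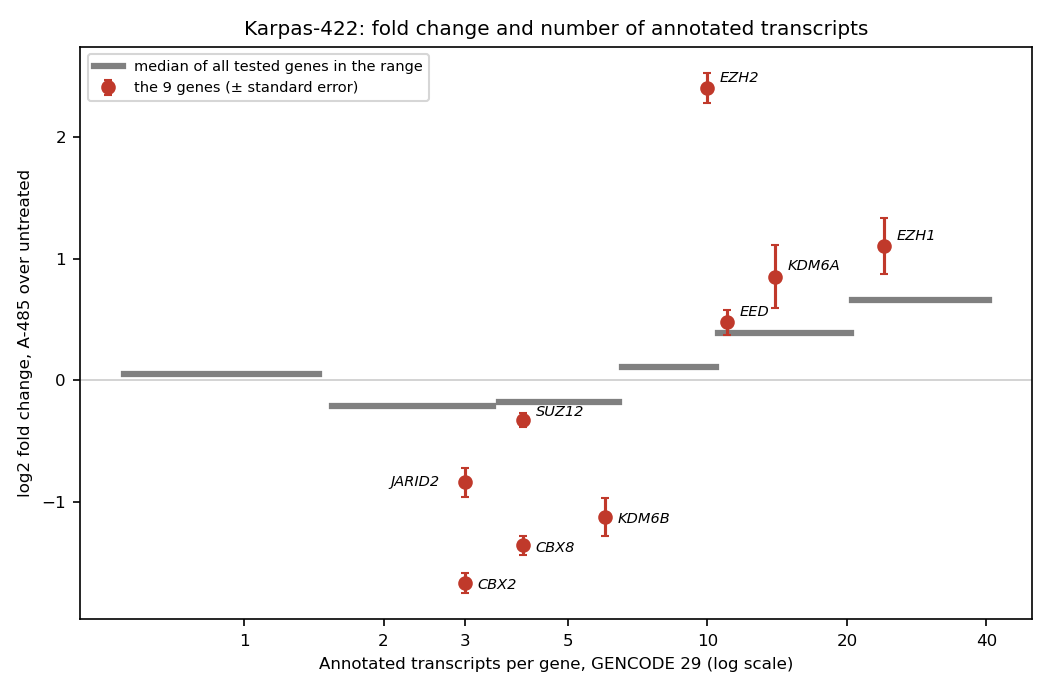
Median log2 fold change (A-485 over untreated, Karpas-422) of all genes tested, by number of GENCODE 29 transcripts, as horizontal bars over each range, with the 9 genes as labelled points (± SE; the transcript axis is logarithmic). The class medians run from -0.21 at 2 to 3 transcripts to 0.66 above 20, with 0.05 at 1 transcript, and the 4 genes that were higher all have at least 10 transcripts.

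The other genes of the pathway were described from lists. Of 8 further PRC2 subunits, all were tested, 5 were higher with A-485 and 3 lower, with a median log2 fold change of 0.49 against 0.08 over all genes. PHF1, a Polycomb-like protein that binds DNA and chromatin for PRC2, was higher by 2.23 ± 0.22 (10.2 ± 1.10 CPM with A-485 and 2.13 ± 0.547 CPM untreated). RBBP7, a histone-binding subunit, was higher by 1.73 ± 0.13, while its close relative RBBP4 was lower by 0.54 ± 0.08 (RBBP7 at 50.8 and RBBP4 at 42.9 CPM with A-485, against 15.2 and 62.3 CPM untreated). MTF2, another Polycomb-like protein, was higher by 0.97 ± 0.20 and LCORL by 0.53 ± 0.09. AEBP2 and PHF19 were lower by 0.23 each, and with library sizes alone both values turned positive, at 0.18. PHF19 was then called higher (edgeR adjusted p = 0.0204) and AEBP2 was not called (adjusted p = 0.0696). Under that scaling 6 of the 8 were called higher and 0 lower, so the fall of RBBP4 was not called.

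PRC1 was mixed. Of its 19 listed genes, 4 were higher, 7 lower and 8 not called, with a median log2 fold change of -0.19. Among the readers of the CBX family, CBX6 was lower by 1.26 ± 0.06 (200 ± 12.3 CPM with A-485 and 481 ± 11.4 CPM untreated), and CBX7 was not called. The catalytic ring finger pair was not called: RING1 had a log2 fold change of -0.39 ± 0.17 (adjusted p = 0.0511) and RNF2 of 0.04 ± 0.09. BMI1, which stimulates that pair, was also not called, at 0.11 ± 0.06 (adjusted p = 0.0984). The Polyhomeotic gene PHC1 was higher, on only 37 to 47 counts with A-485 and 1 to 4 untreated, and PHC2 was lower on 8 to 10 counts with A-485 and 10 to 15 untreated. SCMH1, PHC3 and PCGF3 were higher by 0.63, 0.52 and 0.33, and BCOR and KDM2B, subunits of variant PRC1, were lower by 1.16 ± 0.19 and 0.68 ± 0.06. With library sizes alone the split over this list turned, to 10 higher and 3 lower, and the calls over all genes were 6465 higher and 2290 lower, against 4459 and 3998 with TMM factors.

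**Figure D3:**
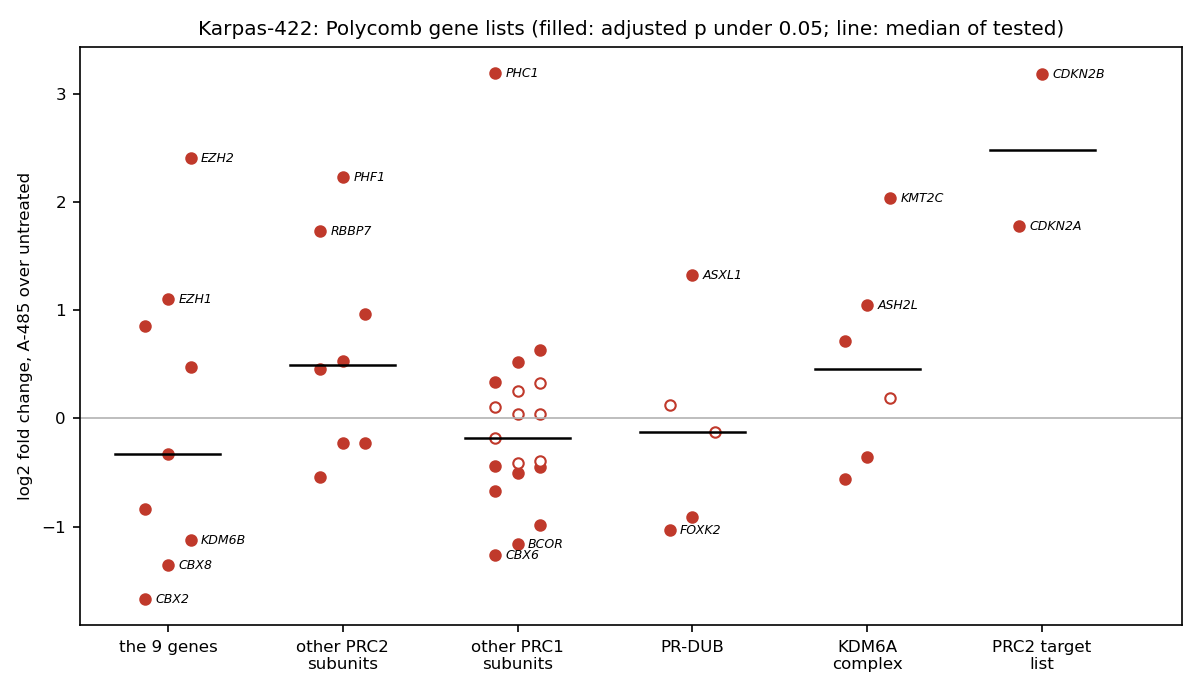
Log2 fold change (A-485 over untreated, Karpas-422) of the 9 genes and of each list of related genes tested (points, filled where the adjusted p is under 0.05), with the median of each list as a black line. EZH2 (2.40) is the highest and CBX2 (-1.67) the lowest of the 9 genes, and PHF1 (2.23) and RBBP7 (1.73) lead the other PRC2 subunits.

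The remaining lists touch the mark from other sides. In the PR-DUB complex, which removes ubiquitin from histone H2A, ASXL1 was higher by 1.32 ± 0.10, FOXK2 and FOXK1 were lower by 1.03 ± 0.11 and 0.92 ± 0.07, and BAP1, its enzyme, was not called. ASXL3 had 0 counts in these libraries. Among the partners of KDM6A, 3 of 6 tested were higher (KMT2C by 2.03 ± 0.16, ASH2L by 1.05 ± 0.28, PAXIP1 by 0.72 ± 0.18). The 2 that were lower were RBBP5, by 0.56 ± 0.15, and DPY30, by 0.36 ± 0.06, which turned to 0.05 with library sizes alone. Under that scaling 3 of the 6 were called higher and 0 lower, so the fall of RBBP5 was not called either. KMT2D, which encodes the MLL4 methyltransferase, was not called (0.19 ± 0.22), and WDR5 had 0 counts in all 9 shallow libraries but 2132 to 3449 in the deep ones. For the inhibited enzymes themselves, CREBBP was higher by 0.40 ± 0.06 and EP300 was not called (0.10 ± 0.13, adjusted p = 0.498). Of 5 known targets of PRC2 in germinal centre cells, the 2 that were tested were higher, as were 37.6% of all genes tested. CDKN2B had 38.6 ± 2.29 CPM with A-485 and 4.17 ± 1.53 CPM untreated (log2 fold change 3.18 ± 0.17, edgeR adjusted p = 1.22e-09), and CDKN2A, in the same locus, had 10.9 ± 1.03 CPM with A-485 and 3.08 ± 1.10 CPM untreated (1.78 ± 0.22). CDKN1A and PRDM1 had 0 counts in all 6 Karpas-422 libraries and IRF4 at most 3.

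The second comparison asked whether these genes differ in the WSU-DLCL2 clones labelled BCL11A knockout. The target itself was not lower in them: BCL11A had 60.1 ± 7.71 CPM in the clones and 55.2 ± 14.8 CPM untreated (n = 3 each), so its RNA level does not check the labels, and an edit that leaves the RNA in place would not be seen. Without untreated replicate 3 BCL11A had 59.9 ± 7.64 CPM in the clones and 46.4 ± 0.445 CPM untreated. Its groups then did not overlap, as in 40.3% of all genes tested, and its log2 fold change was 0.37 ± 0.12 (edgeR adjusted p = 0.177). None of the 9 genes passed the test, with or without untreated replicate 3. With all 3 untreated libraries, 0% of 16152 genes were called, 1117 (6.92%) had an unadjusted p under 0.05, and DESeq2 called 315 genes and limma-voom 2. Without replicate 3, 2.11% of 16607 genes were called, 0.422% higher and 1.69% lower. The median log2 fold change of the 9 genes was -0.003 with all libraries and -0.09 without replicate 3, against -0.01 and 0.02 over all genes.

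None of the core PRC2 genes passed the test in the clones. EZH2 had 172, 163 and 170 CPM in the clones and 182, 178 and 73.8 CPM untreated, so that replicate 3 alone lay far below the rest. The log2 fold change was 0.22 ± 0.33 with it (edgeR adjusted p = 0.906) and -0.09 ± 0.06 without it (adjusted p = 0.466). EED showed the same picture, with 69.9, 63.9 and 67.4 CPM in the clones and 64.3, 66.7 and 35.2 CPM untreated, and a log2 fold change of 0.28 ± 0.25, or 0.04 ± 0.07 without replicate 3. SUZ12 had 249, 210 and 247 CPM in the clones and 241, 244 and 178 CPM untreated. EZH1 was at 45.5 to 56.1 CPM in the clones and 49.5 to 57.7 CPM untreated, with replicate 3 the lowest of the untreated libraries but within the range of the clones, and JARID2 at 4.45 to 7.10 CPM in the clones and 5.93 to 8.15 CPM untreated.

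CBX2 and KDM6B were the genes whose groups did not overlap with all libraries, 2 of 9, against 16.5% of all genes tested. CBX2 had 16.5, 21.2 and 26.8 CPM in the clones and 15.2, 15.2 and 8.24 CPM untreated. Clone 1 lay near untreated replicates 1 and 2, and the clones differed more among themselves than those replicates did. The log2 fold change of CBX2 was 0.74 ± 0.30 (edgeR unadjusted p = 0.0474, adjusted p = 0.712), and 0.50 ± 0.21 without replicate 3 (adjusted p = 0.262). KDM6B had 25.1, 32.6 and 29.4 CPM in the clones and 37.1, 39.5 and 76.2 CPM untreated, with replicate 3 the highest. Its log2 fold change was -0.81 ± 0.30 (edgeR unadjusted p = 0.0335, adjusted p = 0.665) and -0.40 ± 0.13 without replicate 3 (adjusted p = 0.179), and it passed the test only when replicate 3 and clone 2 were both left out (-0.49, adjusted p = 0.0298). CBX8 was at 14.5 to 19.2 CPM in the clones and 16.1 to 17.0 CPM untreated, and KDM6A at 33.0 to 42.5 CPM in the clones and 35.3 to 43.9 CPM untreated. Without replicate 3 the groups of 5 of the 9 genes did not overlap, against 40.3% of all genes tested.

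**Figure D4:**
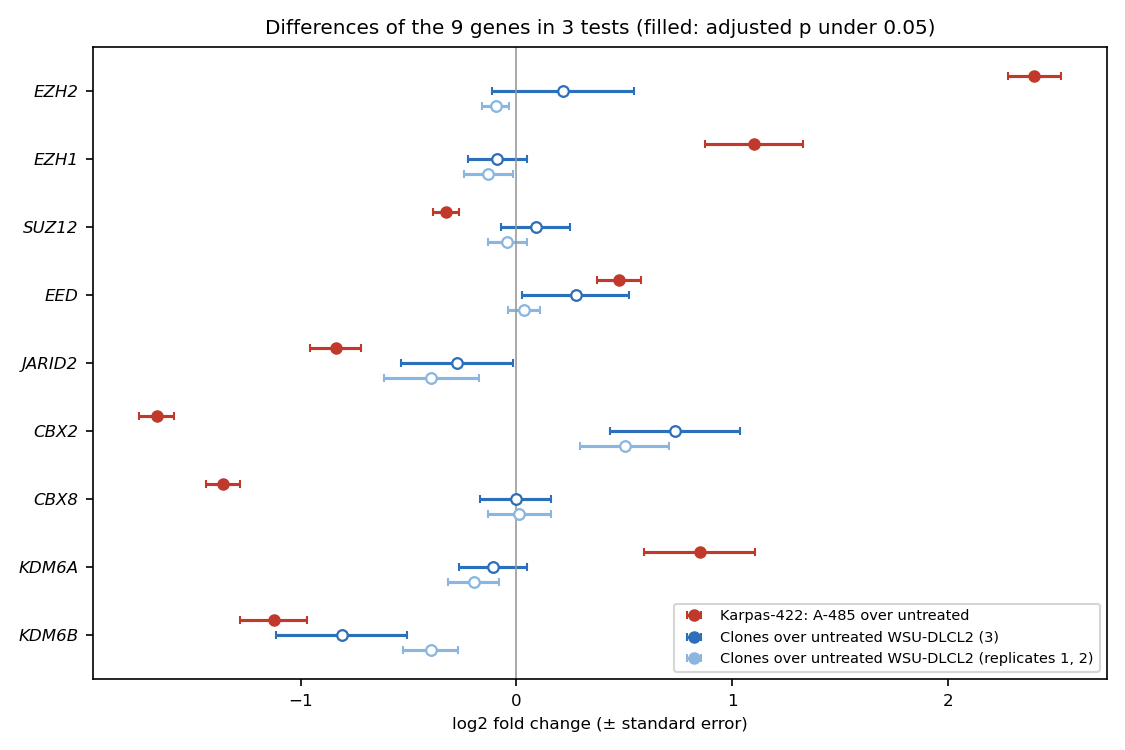
Log2 fold change with SE of the 9 genes in Karpas-422 (A-485 over untreated) and in the clones (clones over untreated WSU-DLCL2), with all libraries and without untreated replicate 3; filled points have an adjusted p under 0.05. All 9 are filled in Karpas-422, from 2.40 for EZH2 to -1.67 for CBX2, and none in the clones.

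Of the listed genes of the pathway, 0 were called in the clones with all untreated libraries and 2 without replicate 3. PCGF5, a ring finger subunit of variant PRC1, was lower by 0.57 ± 0.09 (35.2 ± 2.28 CPM in the clones, n = 3, and 52.4 ± 0.264 CPM untreated, n = 2; edgeR adjusted p = 0.0334). IRF4, a plasma cell factor and one of the listed PRC2 targets, was lower by 3.41 ± 0.42 (0.577 ± 0.318 CPM in the clones and 6.15 ± 0.176 CPM untreated; edgeR adjusted p = 0.0201). IRF4 rests on 10 to 30 counts in the clones. With replicate 3 included the values were -0.49 for PCGF5 and -2.96 for IRF4, and neither passed the test.

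WSU-DLCL2 with A-485 can be given only beside untreated libraries of the other kind, so the drug and the library kind cannot be told apart and nothing was tested. In plain CPM, EZH2 had 34.8, 34.7 and 33.9 CPM with A-485 and 181, 176 and 75.1 CPM untreated. For EZH2, untreated replicate 3 was nearer to the treated libraries than the other 2 were, but still apart from them. It was also nearer for SUZ12, EED and KDM6A, and by little for EZH1 and CBX8. For CBX2, JARID2 and KDM6B it lay farther from the treated libraries than the other 2 did. EED averaged 14.7 CPM with A-485 and 55.2 CPM untreated (n = 3 each), and EZH1 averaged 14.9 CPM with A-485 and 52.8 CPM untreated. SUZ12 averaged 118 CPM with A-485 and 221 CPM untreated, and KDM6A 3.56 CPM with A-485 and 40.7 CPM untreated. KDM6B averaged 12.8 CPM with A-485 and had 37.0, 39.0 and 77.5 CPM in the untreated libraries. The level of KDM6A rests on 19, 25 and 29 counts with A-485 against 763 to 1585 untreated. CBX2 averaged 65.6 CPM with A-485 and 12.9 CPM untreated, CBX8 47.5 CPM with A-485 and 16.6 CPM untreated, and JARID2 10.6 CPM with A-485 and 7.20 CPM untreated. The log2 ratio of these means, A-485 over untreated, ran from -3.52 for KDM6A to 2.35 for CBX2. Among the 8925 genes with at least 10 CPM in untreated WSU-DLCL2 the median of that ratio was -1.64, and by number of transcripts it was -1.55 at 1, 1.03 at 2 to 3, -0.49 at 4 to 6, -1.85 at 7 to 10, -2.43 at 11 to 20 and -2.56 above 20.

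Set per length of exon, on the deep libraries of untreated WSU-DLCL2, the order of levels was SUZ12, EZH2, EED, EZH1, KDM6B, KDM6A, CBX8, CBX2 and JARID2. SUZ12 was at 33.7 CPM per kilobase (27.6 to 36.8) and EZH2 at 31.9 (16.6 to 40.1), and their ranges overlap with replicate 3 included. EED at 7.87, EZH1 at 7.56, KDM6B at 7.05 and KDM6A at 5.71 CPM per kilobase also lay within ranges that overlap one with the next when replicate 3 is included. CBX8 at 3.99 (3.86 to 4.14), CBX2 at 2.26 (1.47 to 2.67) and JARID2, at most at 1.34, were apart from each other. Without replicate 3 EZH2, at a mean of 39.5 CPM per kilobase, stood above SUZ12 at 36.8, and KDM6A at 6.04 above KDM6B at 5.23, while the order of the others did not change. In untreated Karpas-422 the order was different, with CBX8 at 24.0, SUZ12 at 21.2 and CBX2 at 16.2 CPM per kilobase in front and EZH2 at 1.60, EZH1 at 0.878 and KDM6A at 0.393 at the end. With A-485 in that line, SUZ12 stood at 22.4, CBX8 at 12.4 and EZH2 at 11.2 CPM per kilobase. The untreated libraries of the 2 lines are of different kinds, so line and library kind cannot be told apart in this order.

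The protein-coding genes whose pattern over the 15 libraries was most like that of EZH2 were ERI2 (Pearson r = 0.995), CFAP36 (0.993), CCP110 (0.992), CENPC (0.991) and HSD17B4 (0.991), of 8041 genes with a mean of at least 10 CPM. The measure was the correlation of log2(CPM + 0.5), and the 15 points share the kind of library and its depth. ERI2, for one, ranged from 2.73 to 15.5 CPM in the shallow and from 20.5 to 37.4 CPM in the deep libraries.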

How the data were processed

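Total RNA of 2 lymphoma lines was sequenced, and the authors deposited 15 tables of raw counts per gene, whole numbers with 5 summary lines of a read counter. The submitters' processing notes name GRCh37 (hg19), RSEM and STAR 2.5.3a. The sources used here do not name the counting program, annotation, kit or strand, so reads of overlapping, antisense and copied genes cannot be told apart. Summary lines, 60.9% to 70.2% of reads in shallow and 27.3% to 29.7% in deep libraries, stayed out of library sizes and tests. The labels list 17 records, of which 3 are runs of 1 library.

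Symbols came from a name table and GENCODE 29 (52526 of 63677 genes; genes without one held 0.862% of counts), which also gave exonic lengths, merged over all transcripts, and transcript numbers. It is on GRCh38 and was not used for coordinates. Promoters are RefSeq's. Of the listed genes, 3 were not matched and are not analysed here, and some others are not reported here.

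Tests on the counts used edgeR 4.0.16 under R 4.3.3 (filterByExpr, TMM, robust quasi-likelihood fit, two-sided test, Benjamini-Hochberg adjustment over all genes kept, threshold 0.05), each fit holding only the 2 groups compared. The SE of a log2 fold change is its size divided by the square root of the F statistic. Alternatives were DESeq2 1.42.0, limma 3.58.1 (voom), other scalings, no filter on low counts, a replicate block and leaving out each library. The fits were also run on simulated counts with the same spread for every gene and no outlying library. Such counts do not check the fits on libraries as uneven as the untreated WSU-DLCL2 ones. All 9 genes are named, and of each list of more than 5 genes those called with the 4 largest changes in each direction; other listed genes are named where they bear on a member. The members and lists were chosen with earlier results of these data known. Same-numbered libraries were not paired (correlations of their deviations 0.015, 0.064 and -0.043 in Karpas-422 and 0.103, 0.031 and 0.226 in the clones). The lowest chi-square per gene between libraries of a group was 1.20, for Karpas-422 A-485 replicates 2 and 3. Counting noise alone would give a value near 1, and no cutoff was set. Whether that pair is technical cannot be told, and all libraries were kept as separate samples. Counts are of reads, not molecules.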

Additional observations from a re-analysis of the deposited data

Results flagged for a closer look

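For 7 of the 9 genes, every A-485 library lay on one side of every untreated library in Karpas-422 and on the other side in WSU-DLCL2, in plain CPM, as was true of 34.6% of the 11846 genes tested in Karpas-422. The difference between the lines was not tested, and in WSU-DLCL2 the treated and untreated libraries are of 2 kinds, so treatment and kind cannot be told apart. The log2 ratios of mean CPM, A-485 over untreated, in WSU-DLCL2 and then in Karpas-422, were -2.06 and 2.82 for EZH2, -1.83 and 1.53 for EZH1, -1.91 and 0.88 for EED, and -3.52 and 1.29 for KDM6A. They were 0.55 and -0.43 for JARID2, 2.35 and -1.26 for CBX2, and 1.52 and -0.95 for CBX8. SUZ12 and KDM6B did not show this pattern.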

How the results depend on the processing

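In Karpas-422 the 9 genes kept their direction and their call under DESeq2, limma-voom, size factors of the DESeq2 kind, no filter on low counts and every left-out library. The exception was SUZ12, which turned to 0.0798 (adjusted p = 0.295) with library sizes alone, where 8 of the 9 were called. That scaling moved the median log2 fold change of all genes by 0.407, and size factors of the DESeq2 kind split the calls 4250 higher and 4207 lower. The count of called genes lay between 7375 (DESeq2) and 9506 (no filter), and between 7907 and 8840 with 1 library left out. EZH2 stayed between 2.32 and 2.81. Leaving out 1 library moved EZH1 between 0.88 and 1.56 and KDM6A between 0.57 and 1.22.

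In the clones the count of called genes with all libraries was 0, but 20 with no filter, 315 with DESeq2 and 2 with limma-voom, and 0 to 351 with 1 library left out, 351 being without untreated replicate 3. Without that replicate the count of 351 became 835 with no filter and 1147 with DESeq2. With 1 more library left out it ran from 1 (without either remaining untreated library) to 3020 (without clone 2), through 92 without clone 3 and 825 without clone 1, and 0 to 1 of the 9 genes were called. Where 1 untreated library remained, it was assumed to vary like the clones.

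With the replicate block, although the numbers do not pair the libraries, 8250 genes and all 9 members were called in Karpas-422, and 0 genes in the clones. Of the 5 genes most like EZH2, 3 stayed among the 5 with a pseudocount of 5 CPM. Low counts limit KDM6A (10 to 63), EZH1 (27 to 161), PHC1 (1 to 47) and PHC2 (3 to 15) in the shallow libraries. Why these counts were low was not tested.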
